A study of Mus musculus with 38 samples.

Results

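The genes described here are 8 markers of GABAergic interneurons, the local inhibitory neurons of the striatum: Npy, Sst, Nos1, Pvalb, Calb2, Cck, Vip and Gad1. The rule picks their probes by gene symbol in the platform annotation, and the probe with the highest mean stood for each gene. All 8 genes passed the detection filter, among 8444 named genes tested, and they had 10 of the 25697 probes on the array. The study measured total RNA from the striatum of MF1 mice at 152 days of age on Illumina bead arrays, which report the brightness of beads that each carry 1 probe.

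The groups were XXY males (9 animals), XX males (8 animals), XX females (9 animals) and XY males (11 of the 12 labelled animals). The sample codes of all 3 male groups carry Sry, the testis-determining gene (XXYSry, XXSry and XYSry), and that of the XX females does not. The sources used here do not say where the Sry copy lies in each group. XY male replicate 3 lacked a bead signal column among those read, so the main fits left this animal out. Detection p-values of this animal were read, and its log2 values entered the alternative fit on the authors' log2 values. Codes carry a letter, a or b, and some carry both; what the letters stand for is not given in the sources used here. All 8 XX males had letter a and all 9 XX females letter b, whereas 6 of 9 XXY males and 3 of 11 XY males had both letters. Probes detected per array numbered 10089 to 12392, and median raw signals were 144 to 195 for letter b, 120 to 158 for both letters and 113 to 136 for letter a. Letter and labelled batch were therefore terms of the main fits. The letter term is called the run term here, although the sources used here do not say that the letters mark array runs. Xist, the RNA made by the inactive X chromosome, was detected in 9 of 9 XXY males, 8 of 8 XX males, 9 of 9 XX females and 0 of 12 XY males.

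Most neurons of the striatum are projection neurons that release GABA, and interneurons are a small minority with local axons. One interneuron class makes neuropeptide Y, somatostatin and neuronal nitric oxide synthase together, another is fast-spiking and makes the calcium-binding protein parvalbumin, and others make calretinin, cholecystokinin or vasoactive intestinal peptide. GAD67, the product of Gad1, makes GABA in interneurons and projection neurons alike. Since the arrays measured whole striatal tissue, fewer cells of a type and less RNA per cell cannot be told apart.

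Of the 5 genes in the pairs that varied together or in opposite directions over animals, Npy, Sst, Cck and Vip encode peptides and their promoters are shown. Pvalb, the other gene of those pairs, has 2 windows in the RefSeq table, which are not printed. The sequences are the 250 bases before each annotated start, 5′ to 3′ on the gene's strand, from RefSeq on GRCm38.p6. Capitals mark TGACG or its reverse complement CGTCA, the core of the cAMP response element.
Sst promoter, chr16:23890845-23891094 (-): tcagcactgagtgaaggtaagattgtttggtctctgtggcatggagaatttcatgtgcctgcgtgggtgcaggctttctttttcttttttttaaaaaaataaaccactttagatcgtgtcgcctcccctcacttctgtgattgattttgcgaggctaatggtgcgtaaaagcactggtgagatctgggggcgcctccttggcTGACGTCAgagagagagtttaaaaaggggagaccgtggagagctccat
Npy promoter, chr6:49822460-49822709 (+): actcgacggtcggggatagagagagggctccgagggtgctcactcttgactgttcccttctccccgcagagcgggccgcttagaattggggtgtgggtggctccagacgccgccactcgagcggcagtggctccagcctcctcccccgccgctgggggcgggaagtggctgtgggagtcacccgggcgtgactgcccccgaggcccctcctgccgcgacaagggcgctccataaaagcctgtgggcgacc
Cck promoter, chr9:121495695-121495944 (-): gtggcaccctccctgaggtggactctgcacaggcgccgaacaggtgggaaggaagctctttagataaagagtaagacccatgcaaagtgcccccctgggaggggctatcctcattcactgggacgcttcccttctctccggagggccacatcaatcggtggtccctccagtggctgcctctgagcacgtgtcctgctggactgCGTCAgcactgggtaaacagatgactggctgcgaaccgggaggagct
Vip promoter, chr10:5638968-5639217 (+): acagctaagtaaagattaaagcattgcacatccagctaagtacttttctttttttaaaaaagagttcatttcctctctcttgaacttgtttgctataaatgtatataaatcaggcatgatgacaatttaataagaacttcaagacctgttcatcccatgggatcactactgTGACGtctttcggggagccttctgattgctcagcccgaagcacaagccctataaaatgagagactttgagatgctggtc
The full palindrome TGACGTCA, which holds the 5-letter core on both strands, was found in the Sst sequence 48 bases before the start. It occurred in 1.55% of 32851 mouse promoter windows in the RefSeq table. Cck held the core once, 47 bases before the start, and Vip once, 79 bases before the start. Nos1, not printed, held it 130 bases before the start. The core was not in the windows of Npy, Pvalb or Gad1, and it was in 17.8% of all windows when both strands were searched. TATAAA was found 3 times in the Vip window, the nearest 30 bases before the start, and in 12.4% of all windows. Windows were on hand for 7 of the 8 genes. These matches describe letters only.

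The members differed widely in how far animals stood apart. Residual SD, the spread between animals after group, batch and run terms, was 1.05 for Vip, 0.84 for Cck, 0.81 for Calb2 and 0.67 for Pvalb on the log2 scale. It was 0.29 for Npy, 0.29 for Nos1, 0.25 for Gad1 and 0.19 for Sst, against a median of 0.32 over all 9455 features. Among the 500 features of nearest mean, 98.4% to 99.4% had a smaller residual SD than Pvalb, Calb2, Cck and Vip. For Npy, Sst, Nos1 and Gad1 that share was 58.8%, 32%, 28.8% and 51.6%. The median bead standard error on single arrays, a measure of noise within 1 array and not between animals, ran from 2.96% of the raw signal for the Pvalb probe to 4.79% for the Gad1 probe.

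Npy encodes neuropeptide Y, a peptide transmitter. Its raw signal ran from 1581 to 6055 with a median of 3251. The lowest, median and highest log2 levels were 11.43, 11.78 and 12.20 in XXY males, 11.60, 11.94 and 12.13 in XX males, 11.20, 11.70 and 12.24 in XX females, and 11.17, 11.66 and 11.99 in XY males. The groups overlapped throughout, and XX females were the most scattered. Means were 11.81 ± 0.28 (SD, n = 9) in XXY males, 11.92 ± 0.16 (n = 8) in XX males, 11.68 ± 0.41 (n = 9) in XX females and 11.64 ± 0.25 (n = 11) in XY males. The highest and lowest group means were 0.27 apart, less than the pooled within-group SD of 0.29.

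Sst encodes somatostatin, the inhibitory peptide of the same interneurons, and was the steadiest of the members. Its raw signal ran from 3218 to 13144 with a median of 6284. Log2 levels (lowest, median, highest) were 12.28, 12.72 and 12.97 in XXY males, 12.42, 12.64 and 12.76 in XX males, 12.58, 12.82 and 13.08 in XX females, and 12.25, 12.66 and 12.87 in XY males. XX females reached highest, but every group overlapped every other. The means were 12.72 ± 0.22, 12.60 ± 0.14, 12.83 ± 0.19 and 12.61 ± 0.19 in the same order of groups, a span of 0.23 against a pooled SD of 0.19.

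Nos1 encodes neuronal nitric oxide synthase, the third product of that class. Its probe was dim: it passed a detection p-value of 0.01 in 10 of 37 animals, 3 of 9 XXY males, 4 of 8 XX males, 1 of 9 XX females and 2 of 11 XY males. Raw signals were 121 to 209 with a median of 150. Its log2 levels (lowest, median, highest) were 4.89, 5.30 and 6.03 in XXY males, 5.34, 5.62 and 6.50 in XX males, 4.96, 5.24 and 5.68 in XX females, and 5.04, 5.52 and 5.78 in XY males. Most of these values lay near background, where the offset added before log2 shrinks differences, and the groups overlapped. The highest and lowest group means were 0.44 apart, above the pooled SD of 0.31, between XX males at 5.73 ± 0.42 and XX females at 5.30 ± 0.20. Those groups differ in letter in every animal.

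Pvalb encodes parvalbumin, the calcium buffer of fast-spiking interneurons, which is also abundant in parts of the thalamus, septum and globus pallidus. Its raw signal ran from 3637 to 25232 with a median of 11954. The log2 levels (lowest, median, highest) were 12.04, 13.35 and 13.91 in XXY males, 12.50, 13.81 and 14.30 in XX males, 11.48, 13.39 and 14.23 in XX females, and 12.73, 13.52 and 14.40 in XY males. All groups overlapped, and 1 XX female, replicate 9, was the lowest animal of the study at 11.48. Group means were 13.20 ± 0.63 in XXY males, 13.65 ± 0.63 in XX males, 13.30 ± 0.78 in XX females and 13.62 ± 0.56 in XY males, a span of 0.45 against a pooled SD of 0.65.

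Calb2 encodes calretinin, another calcium-binding protein. Its raw signal ran from 401 to 5187 with a median of 1369. On the log2 scale the lowest, median and highest levels were 9.42, 11.11 and 11.72 in XXY males, 8.70, 10.07 and 11.01 in XX males, 8.99, 10.58 and 11.75 in XX females, and 9.75, 10.82 and 11.66 in XY males. XX males had the lowest median, the lowest highest value and the lowest animal of the study at 8.70, and they overlapped every other group. Means were 10.79 ± 0.77 in XXY males, 10.00 ± 0.67 in XX males, 10.22 ± 1.05 in XX females and 10.68 ± 0.68 in XY males, a span of 0.79 against a pooled SD of 0.81. A second probe of Calb2 varied with the first at r = 0.974 over the 37 animals.

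Cck encodes cholecystokinin, a peptide of some interneurons that cortical and thalamic excitatory neurons also make. Raw signals were 376 to 5293 with a median of 1408. In log2 units the lowest, median and highest levels were 8.69, 10.52 and 11.98 in XXY males, 9.30, 10.89 and 11.34 in XX males, 9.36, 10.61 and 11.37 in XX females, and 9.00, 11.08 and 11.82 in XY males. XXY males held both the lowest and the highest animal. Means were 10.36 ± 0.95 in XXY males, 10.58 ± 0.80 in XX males, 10.56 ± 0.67 in XX females and 10.81 ± 0.84 in XY males, a span of 0.45 against a pooled SD of 0.82.

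Vip encodes vasoactive intestinal peptide, and its probe was detected in 31 of 37 animals, 8 of 9 XXY males, 8 of 8 XX males, 7 of 9 XX females and 8 of 11 XY males. Raw signals were 120 to 437 with a median of 202. Log2 levels (lowest, median, highest) were 4.82, 6.55 and 8.45 in XXY males, 5.68, 6.36 and 8.67 in XX males, 4.91, 6.49 and 7.56 in XX females, and 5.07, 6.72 and 8.03 in XY males. XXY males, XX females and XY males held animals below detection, whereas every XX male was detected. All groups also held animals far above background. Means were 6.52 ± 1.14 in XXY males, 6.87 ± 1.22 in XX males, 6.30 ± 0.81 in XX females and 6.45 ± 1.05 in XY males. The span of group means, 0.57, was smaller than the pooled SD of 1.06.

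Gad1 encodes the GABA-synthesising enzyme GAD67. Its raw signal ran from 2115 to 14165 with a median of 5985. Its log2 levels (lowest, median, highest) were 12.23, 12.68 and 13.04 in XXY males, 11.82, 12.30 and 12.85 in XX males, 12.52, 12.89 and 13.54 in XX females, and 12.02, 12.42 and 13.19 in XY males. XX females sat highest and XX males lowest, with overlap. Means were 12.63 ± 0.28 in XXY males, 12.33 ± 0.32 in XX males, 12.92 ± 0.29 in XX females and 12.53 ± 0.40 in XY males. Their span of 0.59 exceeded the pooled SD of 0.33, between the groups that differ in letter in every animal.

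**Figure D1:**
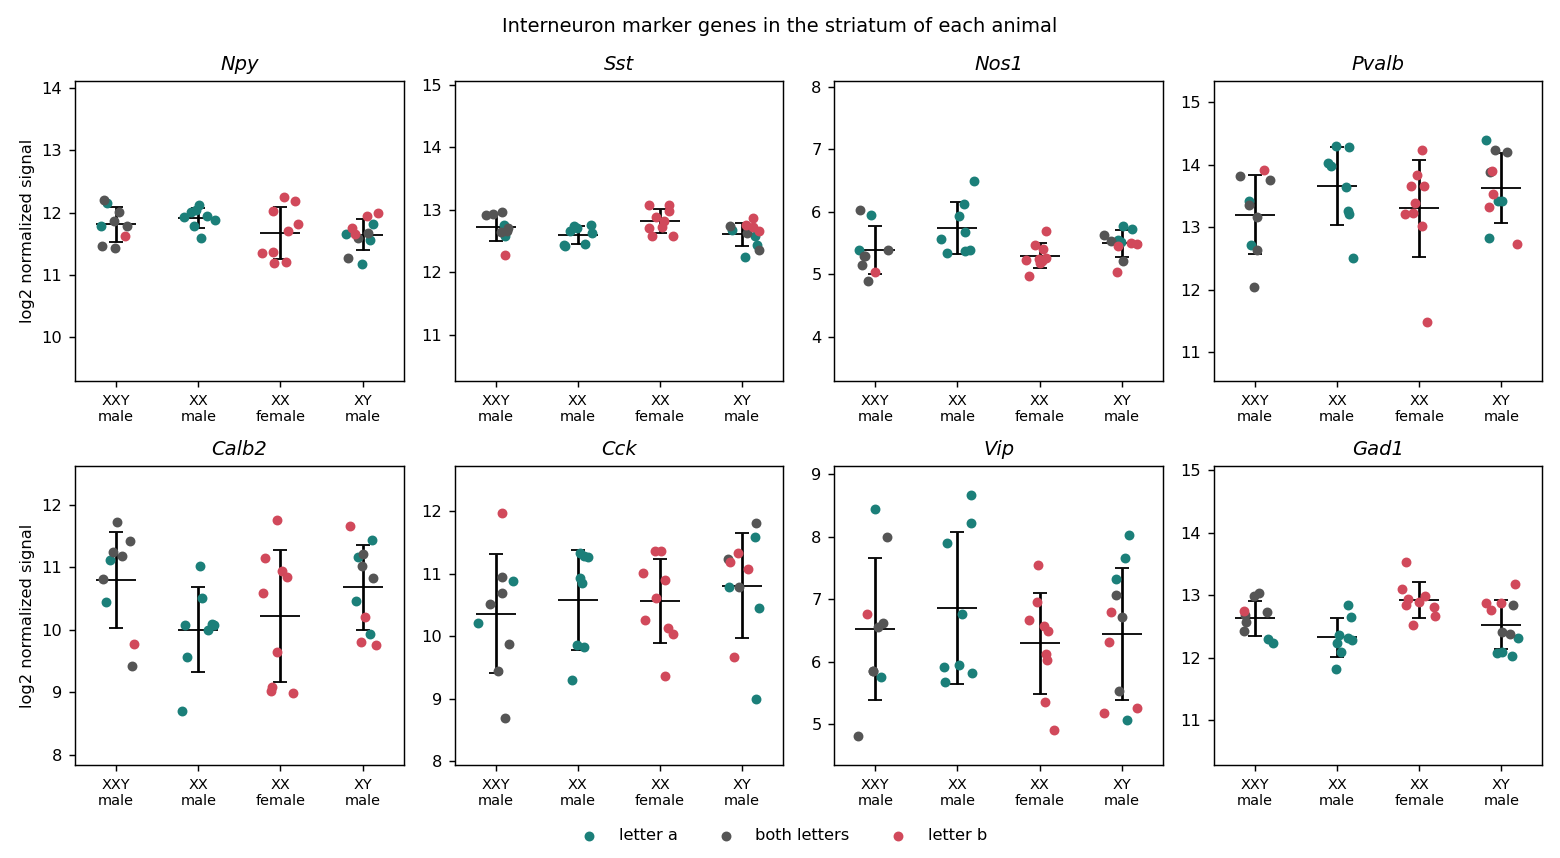
Log2 normalized signal of each marker gene (y axis, 1 panel per gene, same span of log2 units in each) in every animal, by group (x axis). Points are animals coloured by code letter, and bars are the mean and SD; Vip, Cck, Calb2 and Pvalb show the widest scatter, with residual SDs of 0.67 to 1.05, and all groups overlap.

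No member passed the test between groups in any of the 6 comparisons by limma with Benjamini-Hochberg adjustment over all 9455 features. In XXY males against XY males, which differ by an X chromosome, 0 of 8 members were called and 0 had an unadjusted p below 0.05. Over all features 0.0635% were called, and 123 had an unadjusted p below 0.05. The median difference of the members was 0.04 where that of all features was near 0. Member differences ran from -0.42 for Cck (SE 0.36) and Pvalb (SE 0.29) to 0.18 for Npy (SE 0.13). The 95% interval for Cck was -1.15 to 0.31 and that for Npy -0.08 to 0.44. The genes of thalamus and septum averaged 8.49 in XXY males (animals 7.44 to 9.73) and 9.00 in XY males (7.79 to 10.25) on the log2 scale, and 0 of the 8 list genes had a positive difference. They lay in the same direction as Pvalb and Cck, and their part in those differences was not tested. In XX females against XY males 0 of 8 list genes were positive (median -0.93), beside -0.33 for Pvalb and -0.44 for Cck. In XXY males against XX females all 8 were positive (median 0.56), beside -0.09 for Pvalb and 0.02 for Cck. Against XX males, XXY males had 1 of 8 positive (median -0.61), beside -0.46 for Pvalb and -0.40 for Cck. For XX males against XX females all 8 were positive (median 1.19), beside 0.37 for Pvalb and 0.43 for Cck. For XX males against XY males 6 of 8 were positive (median 0.10), beside 0.05 for Pvalb and -0.02 for Cck.

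Against XY males, XX males had 0 of 8 members called (0 at an unadjusted p below 0.05, and 0.0529% of all features called). Calb2 stood lowest in this comparison, with a log2 difference of -0.83 (SE 0.44, 95% interval -1.73 to 0.07). On unadjusted levels 1 of 8 XX males, all of letter a, exceeded the XY male mean. Npy stood highest with 0.28 (SE 0.16). The 9 hypothalamic peptide and marker genes averaged 8.70 in XX males (animals 7.75 to 10.03) and 9.04 in XY males (7.40 to 10.38). None of the 9 had a positive difference in the fit, beside the Calb2 value, and their part in it was not tested.

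In XX females against XY males 0 of 8 members were called, again with 0 at an unadjusted p below 0.05, beside 0.0529% of all features called. The differences ran from -0.44 for Cck (SE 0.47) to 0.23 for Vip (SE 0.59). Sst differed by 0.18 (SE 0.12). On levels not adjusted for letter or batch, 7 of 9 XX females, all of letter b, lay above the XY male mean.

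In XXY males against XX males, 0 of 8 members were called while 0.0212% of all features were. Calb2 alone of the members had an unadjusted p below 0.05, as did 590 of all 9455 features. Its log2 difference was 0.91 (SE 0.45, 95% interval 0.0026 to 1.81, unadjusted p = 0.0494), and the adjusted p of 0.689 did not pass. It was higher in 7 of 9 XXY males than the XX male mean, and its second probe gave 0.94 (SE 0.48). Pvalb differed by -0.46 (SE 0.37) and Nos1 by -0.26 (SE 0.17). All 9 hypothalamic genes had a positive difference here, with a median of 0.74, and their part in the Calb2 difference was not tested. Calb2 had 0.08 in XXY males against XY males, where 6 of 9 hypothalamic genes were positive (median 0.10). It had -0.46 in XX males against XX females, where 1 of 9 was positive (median -1.41). In XX females against XY males Calb2 had -0.37, while 6 of 9 hypothalamic genes were positive (median 0.33). In XXY males against XX females Calb2 had 0.45, while 3 of 9 were positive (median -0.19).

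In XXY males against XX females, 0 of 8 members were called, with 0 at an unadjusted p below 0.05 and 0.0423% of all features called. The largest difference was that of Calb2, 0.45 (SE 0.48), and Npy differed by 0.11 (SE 0.18). For XX males against XX females the letter coincides with the group, so the estimate leans on the run term fitted in the other groups and the intervals are wide. None of the 8 members was called (0 at an unadjusted p below 0.05), beside 0.0106% of all features. The Vip interval ran from -2.00 to 1.48 around -0.26, and that of Sst from -0.48 to 0.22 around -0.13. The median difference of the 8 members, with that of all features after it, was 0.05 and 0.01 for XX males against XY males, -0.02 and -0.01 for XX females against XY males, and 0.13 and 0.02 for XX males against XX females.

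**Figure D2:**
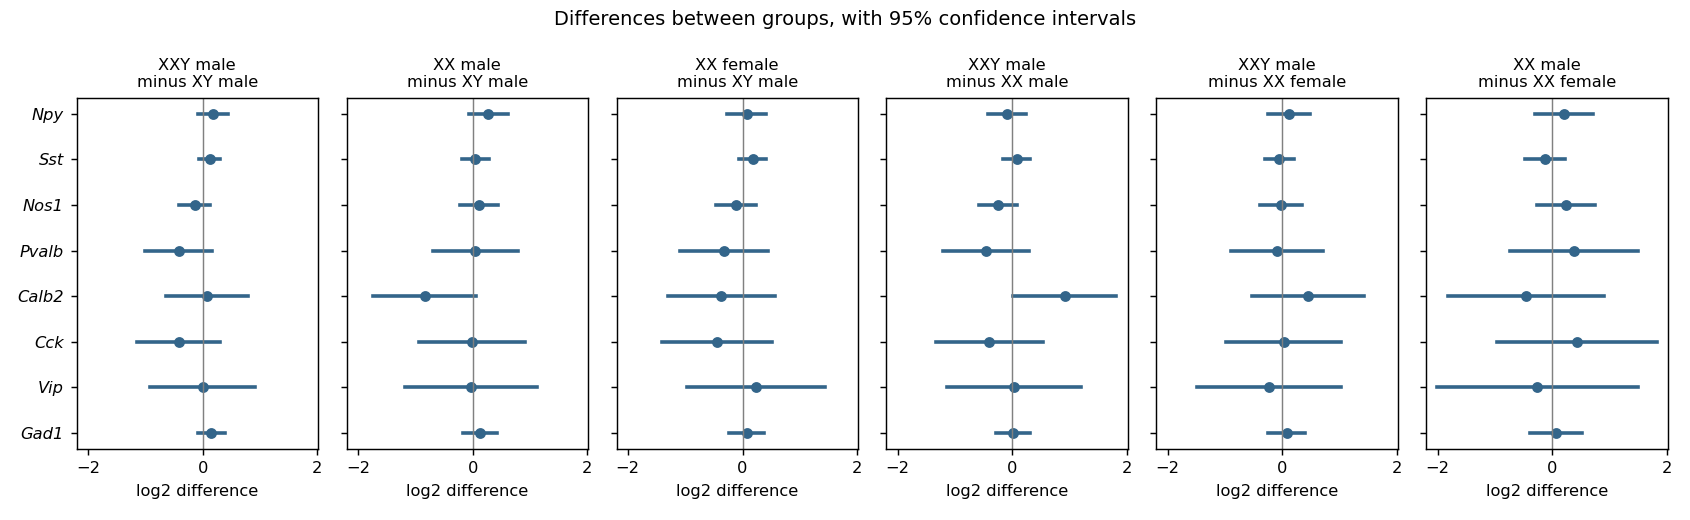
Log2 differences of the 8 marker genes (y axis, 1 row per gene) in the 6 comparisons of groups (1 panel each, x axis in log2 units), with 95% confidence intervals as lines. Intervals include 0 except that of Calb2 in XXY males against XX males, which starts just above 0 and whose adjusted p is 0.689.

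The run term, letter b against letter a, called 1 of 8 members, beside 13.2% of all features. Gad1 was higher by 0.65 on the log2 scale in letter b arrays (SE 0.19, adjusted p = 0.0178), with means of 12.91 for letter b and 12.26 for letter a, and 14 of 14 letter b animals exceeded the letter a mean. The second Gad1 probe gave 0.41 (SE 0.22), with an adjusted p over all probes of 0.212, so the call rests on 1 of 2 probes. The call was also lost with 75th percentile scaling, where Gad1 had 0.32 with adjusted p = 0.257 and the median run term of all features moved to -0.16, against 0.01 with the main normalization. Labelled batch 2 against batch 1 called 0 of 8 members and 0% of all features, with 0 members and 156 features at an unadjusted p below 0.05.

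Co-variation between members was measured over the 37 animals on residuals after group, batch and run terms. A pair was called where limma's adjusted p, over all features, was below 0.05 with each gene in turn as the predictor. Of 28 pairs 6 were called, 3 positive and 3 negative, and correlations ran from -0.64 to 0.64. For 15 pairs the permutation p of r was below 0.05 before adjustment. The share of all features that varied with each gene was large for some of them and is the background for each pair.

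Npy and Sst rose and fell together, with r = 0.62 and rho = 0.63 (permutation p = 5e-05 and 8e-05, larger adjusted p = 0.0284). Of all features 20.3% varied positively and 18.4% negatively with Npy, against 0.508% and 0.751% with Sst. At an unadjusted limma p below 0.05, 1377 of 9454 features varied with Sst. A higher r with Sst than that of Npy was found for 0.275% of features. A higher r with Npy than that of Sst was found for 3.27%. Refitted within letters the correlation was 0.57 in letter a, 0.63 in letter b and 0.70 in animals with both letters, and over all letters without the 2 animals farthest in Npy it was 0.63. The call was lost without XX female replicate 9 (r = 0.59, adjusted p = 0.0678) and without the animals with both letters (r = 0.68, adjusted p = 0.0627). Nos1, the third gene of the class, had r = 0.03 with Npy and 0.02 with Sst. Its probe was near background, and 0% of features varied with it in either direction by limma, though 1979 of 9454 did at an unadjusted p below 0.05.

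Npy ran opposite to 3 other members. With Pvalb r was -0.64 (rho -0.65, permutation p = 3e-05 and 4e-05, adjusted p = 0.00227), and with Cck it was -0.62 (rho -0.67, permutation p = 7e-05 and 1e-05, the last the smallest that the permutations can give, adjusted p = 0.00334). Animals high in Npy thus tended to be low in Pvalb and Cck. With 75th percentile scaling the call of Npy and Cck was lost (r = -0.42, adjusted p = 0.110). Npy and Pvalb stayed called there at r = -0.49 (adjusted p = 0.0441). Npy also varied negatively with 6 of 8 thalamus and septum genes (median r -0.48) and 4 of 8 oligodendrocyte genes (median r -0.32), and their part in these pairs was not tested. Refitted within letters, the Pvalb correlation was -0.52 in letter a, -0.53 in letter b and -0.83 with both letters. That of Cck was -0.84, -0.58 and -0.76 in the same order, and over all letters without the 2 animals farthest in Npy the values were -0.64 for Pvalb and -0.62 for Cck. Npy and Vip had r = -0.45 (rho -0.44, permutation p = 0.00591 and 0.00606, adjusted p = 0.0242), beside 27.6% of all features that varied positively and 29.7% that varied negatively with Vip. That pair was lost with 75th percentile scaling (r = -0.12, adjusted p = 0.780), and it passed in only 6 of 14 alternatives, with adjusted p from 0.0236 to 0.978.

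Pvalb and Cck varied together at r = 0.61 (rho 0.66, permutation p = 0.00011 and 3e-05, adjusted p = 0.00304). Of all features 6.86% varied positively and 6.62% negatively with Pvalb, against 12.9% and 14.2% with Cck. Refitted within letters the correlation was 0.40 in letter a, 0.68 in letter b and 0.89 in animals with both letters, and without those last animals it was 0.51 with an adjusted p of 0.0628. Cck and Vip had r = 0.64 (rho 0.61, permutation p = 3e-05 and 5e-05, adjusted p = 0.00122), and 0.75 in letter a, 0.30 in letter b and 0.83 with both letters when refitted. That call was lost with the first component of the residuals as a covariate (r = 0.49, adjusted p = 0.217). Calb2, Gad1 and Nos1 entered no called pair. With Calb2 2.08% of all features varied positively and 1.88% negatively, and with Gad1 6.64% and 6.35%.

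**Figure D3:**
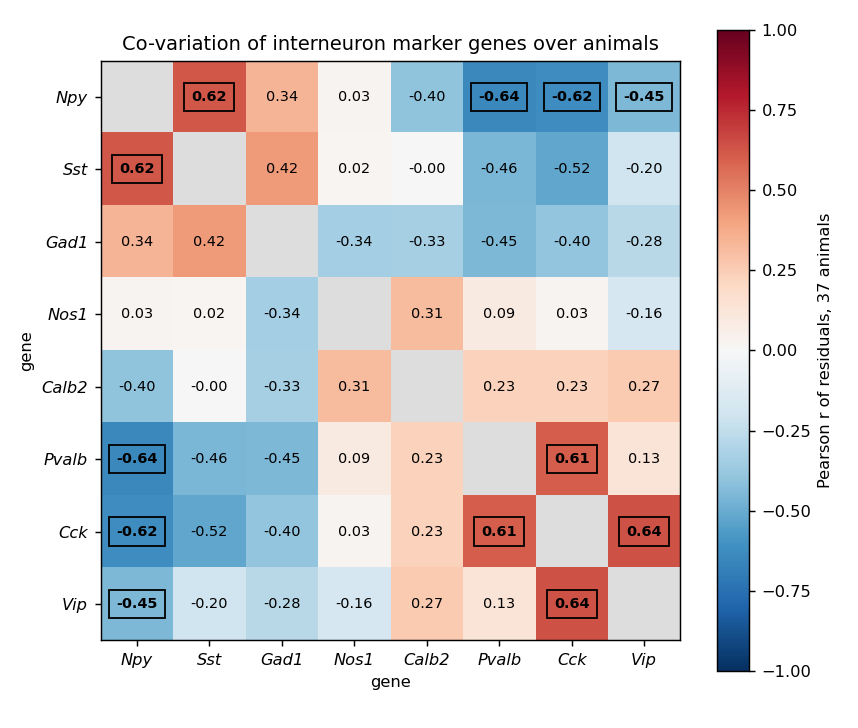
Pearson r of residuals for each pair of the 8 marker genes over 37 animals (both axes list the genes, colour is r from -1 to 1). Boxed values are the 6 called pairs: Npy with Sst is positive at 0.62, Npy with Pvalb, Cck and Vip is negative, and Cck with Pvalb and Vip is positive.

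**Figure D4:**
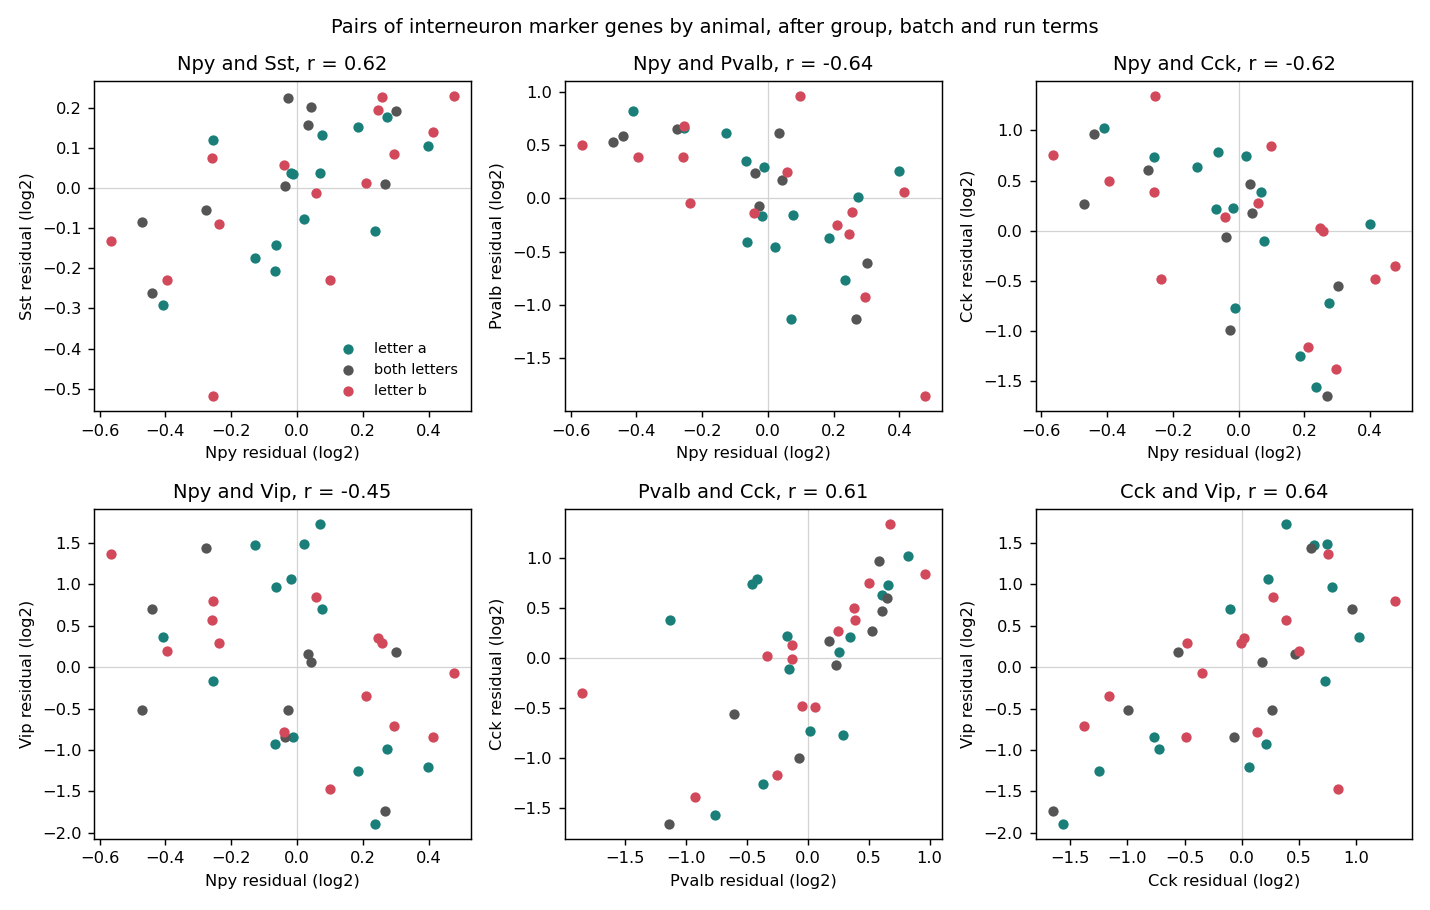
Residual log2 levels of the 6 called pairs, 1 point per animal coloured by code letter (axes in log2 units, scaled per panel). The XX female at the lower end of Pvalb, replicate 9, is also the highest in Npy, and the points of all 3 letter classes mix.

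The genes of other cell types that varied with each member were counted in lists of known markers, and each count stands against the share of all features that varied with that member. Among 14 tested genes of striatal projection neurons, 12 varied positively and 0 negatively with Npy, with a median r of 0.70 against 0.03 over all features. Gpr6, an orphan receptor of indirect-pathway neurons, was highest at 0.81, and Pdyn, the dynorphin precursor, had 0.80. With Cck 0 varied positively and 13 negatively (median r -0.66 against -0.02), and with Pvalb 0 and 11 (median -0.57). With Vip 0 and 10 did so, with Calb2 0 and 4, with Gad1 4 and 0, and with Sst 1 and 0. The Sst gene was Tac1, the substance P precursor, at r = 0.63. The projection neuron list averaged 10.10 to 11.22 in single XXY males, 10.30 to 11.18 in XX males, 10.03 to 11.49 in XX females and 10.04 to 11.11 in XY males.

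Pvalb varied with genes of neighbouring tissue and of myelin. Of 8 tested thalamus and septum genes 5 varied positively with it (median r 0.63), and Prkcd, a protein kinase C of thalamic neurons, was highest at 0.83. Of 8 oligodendrocyte genes 6 varied positively and 0 negatively (median r 0.56), with Mog, a myelin surface protein, at 0.86. Of 7 globus pallidus genes 2 varied positively, Kcnab3 and Zic1, and 1 negatively; Zic1 is also on the thalamus and septum list. All 8 oligodendrocyte genes were detected in 37 of 37 animals, as were 7 of the 8 thalamus and septum genes, the exception being Zic4 in 20. The oligodendrocyte list averaged 11.67 to 12.55 in single XXY males, 11.38 to 12.42 in XX males, 11.30 to 12.50 in XX females and 11.77 to 12.50 in XY males. The part of these tissues in the Pvalb level was not tested.

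Cck also varied with 5 of the 8 thalamus and septum genes (median r 0.48), with Ntng1, an axon guidance gene, at 0.80. Of 10 cortical glutamatergic genes 5 varied positively with it and 2 negatively. The median r of the 10 was 0.24. Nrn1, a neurite growth factor, had r = 0.95 and Slc17a7, the vesicular glutamate transporter of cortical neurons, 0.81. The 2 negative genes were Lmo3 at -0.72 and Lmo4 at -0.45, and Fezf2 had 0.05 and Mef2c 0.01. Calb2 varied positively with 5 of 9 hypothalamic genes (median r 0.56), with the hormone genes Oxt at 0.84 and Avp at 0.82. The cortical list overlapped between groups, with averages of 7.74 to 9.12 in XXY males, 8.03 to 9.25 in XX males, 8.15 to 9.15 in XX females and 8.11 to 9.13 in XY males. Their part in the Cck and Calb2 levels was not tested.

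Among 4 other genes of GABA synthesis and transport, Slc32a1, the vesicular GABA transporter, and Abat, which breaks GABA down, varied positively with Npy at 0.67 and 0.53. Abat varied with Gad1 at 0.73 (adjusted p = 0.000968). All 4 varied negatively with Vip (median r -0.63). Of 7 cholinergic interneuron genes 5 varied positively with Npy and 6 negatively with Cck, with Chat, the acetylcholine-making enzyme, at 0.66 and Slc5a7, the choline transporter, at -0.66. Of 5 endothelial genes all 5 varied positively with Npy (median r 0.49) and all 5 negatively with Vip (median r -0.64).

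**Figure D5:**
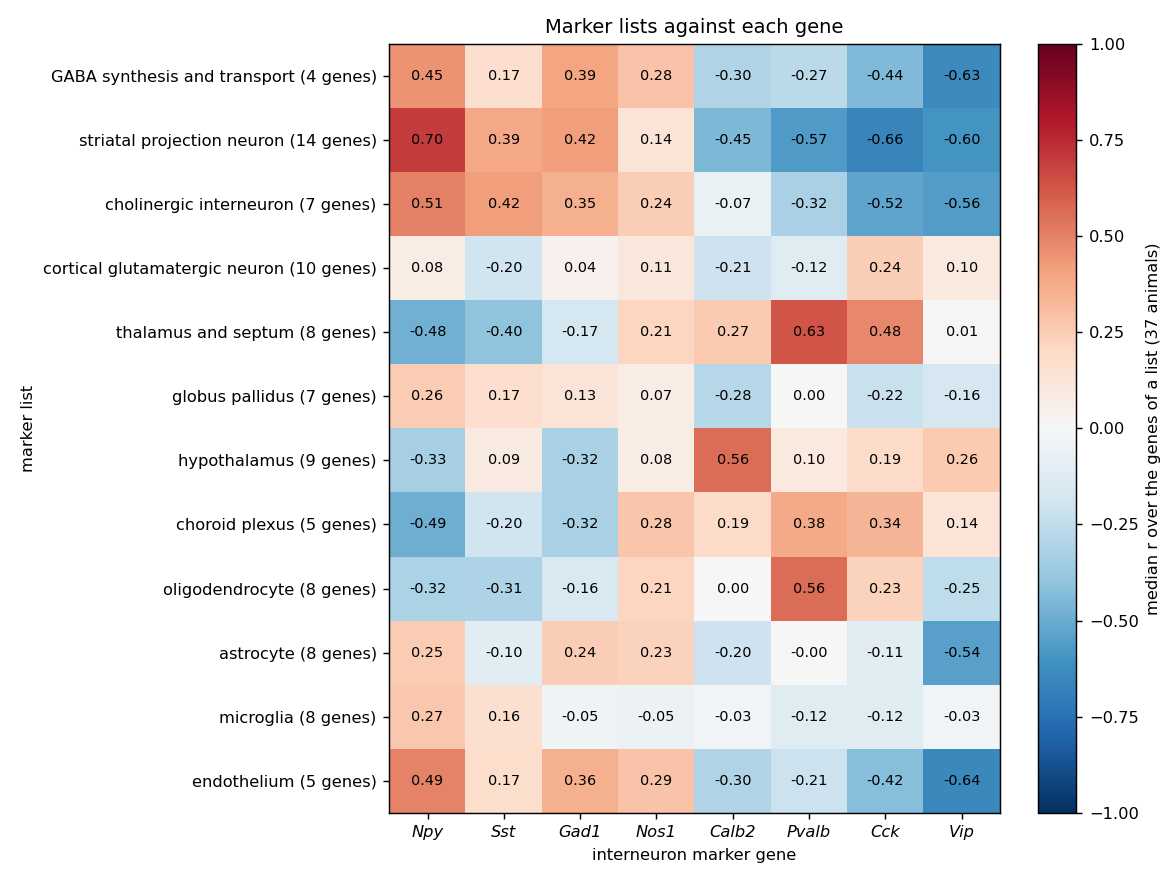
Median Pearson r of residuals, over 37 animals, between the tested genes of each marker list (rows, with the number of genes) and each interneuron marker gene (columns); colour is r from -1 to 1. The projection neuron row is 0.70 for Npy and -0.66 for Cck, the oligodendrocyte row is 0.56 for Pvalb and the hypothalamus row 0.56 for Calb2.

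Of 18 other interneuron genes tested, 6 varied positively and 4 negatively with Vip, beside 27.6% and 29.7% of all features. Among them Crhbp, which binds corticotropin-releasing hormone, had r = 0.87 and Cort, the somatostatin-related cortistatin, 0.82. Cox6a2, a respiratory chain subunit, had 0.72 with Pvalb and 0.80 with Cck but -0.66 with Npy. The list went both ways: of the 18 genes 2 varied positively and 2 negatively with Pvalb, 4 and 5 with Cck, and 5 and 2 with Npy. Th had -0.70 with Pvalb, and Reln had -0.75 with Cck and 0.70 with Npy. Of 9 interneuron transcription factors 3 varied positively and 0 negatively with Pvalb, beside 6.86% and 6.62% of all features. These were Nr2f2 at 0.71, Prox1 at 0.70 and Nr2f1 at 0.60, and Nr2f2 was detected in 22 of 37 animals. The median r of the 9 with Pvalb was 0.10. The lowest was Dlx2 at -0.39, and Satb1 had -0.26 and Nkx2-1 0.10. Of 10 receptor and effector genes for these peptides and nitric oxide, 2 varied positively with Npy, beside 20.3% of all features: Gucy1a1, a subunit of the nitric oxide receptor, at 0.77, and Sstr5, a somatostatin receptor, at 0.67. With Sst 1 did, Gucy1b1, the partner subunit, at 0.58. Across all 16 lists, 127 genes were tested and 0 were called in any of the 6 comparisons of groups by limma, with 1 to 10 per comparison at an unadjusted p below 0.05.

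The named genes whose residuals were most like each member over the 37 animals were these. For Npy they were Cited4 (r = 0.85), Nomo1 (0.84) and Prr7 (0.84), and for Sst Panx1 (0.76), Bbs9 (0.74) and Kcnk2 (0.73). Pvalb was most like Ramp3 (0.91), Hapln2 (0.89) and Dapk2 (0.89), and Calb2 most like Pnma3 (0.93), Slc7a3 (0.88) and Gpx3 (0.87). Cck was nearest to Nrn1 (0.95), Necab3 (0.89) and Medag (0.88), Vip to Ncald (0.88), Crhbp (0.87) and 1110008P14Rik (0.86), and Gad1 to Bhlhb9 (0.84), Ywhab (0.84) and Gorasp2 (0.81). For Nos1 the values were lower, Sar1a (0.62), Spire2 (0.62) and Slc41a3 (0.59). The first component of the residuals of all features held 45.3% of their variance, and Vip correlated with it at -0.73 and Npy at 0.53. The second held 10.6%, with Pvalb at 0.82, Npy at -0.61 and Sst at -0.59.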

How the data were processed

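The authors deposited bead signal intensity on a linear scale, together with detection p-values, bead standard errors as intensity and bead numbers (another unit), per the file headers. These values were not normalized between arrays. Columns with both letters held bead numbers midway between whole numbers, in 9 of 9 columns, and appear to be 2 merged arrays; each was used as 1 animal. The authors also deposited log2 values, with limma named in the submitters' processing notes and the scale and centring not given in the sources used here. In that table the XX male columns correlated at 0.0624 to 0.0729 (Spearman) with their own arrays, against 0.987 to 1.00 in the other groups, so it served only as an alternative without XX males. Columns left unused for want of a sample numbered 0.

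Signals were corrected with normexp, using background levels inferred from detection p-values, quantile-normalized and logged to base 2 after an offset of 16 was added, with the neqc function of limma 3.58.1 under R 4.3.3. The filter required detection (p-value below 0.01) in 8 or more animals, and the brightest probe stood for a named gene, leaving 9455 features. limma's lmFit and eBayes were fitted over all 4 groups with labelled batch and the share of letter b arrays as terms. P-values were adjusted with Benjamini-Hochberg over all features at 0.05. Group means, and counts of animals above the mean of another group or letter, are unadjusted. Differences and SE come from the fit. For pairs, every feature was regressed on each member with the same terms, and correlations of residuals had 100000 permutations. Fits were tested on simulated data. Levels of different probes were not compared. The number of arrays and the signal over background limit the precision. The labels call the animals biological replicates.

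The members and marker lists were chosen with earlier results of these data known. Named genes were the 8 members, the 3 nearest neighbours of each and, in each list, genes that passed a test. List genes named for their correlation with a member were chosen after their values were seen. Alternatives covered normalization, filter, probe choice, covariates, array weights, a replicate block, subsets of arrays and the authors' table. Promoter sequences came from RefSeq on GRCm38.p6, matched by symbol. Figures used Python 3.11.15 and matplotlib 3.10.9.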

Additional observations from a re-analysis of the deposited data

Results flagged for a closer look

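Pvalb in XX female replicate 9 stood apart from the other XX females. Its log2 level was 11.48, the next lowest animal of the group had 13.02 and the highest 14.23, so the gap to its neighbour was 0.560 of the whole range. Over 24 sets of members and groups tested, chance flags about 1 in 20. The same animal had the highest Npy residual of the study.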

How the results depend on the processing

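Across all alternatives run, 0 members were called in 5 of the comparisons between groups. In XX males against XX females, 2 were called without the run term, Gad1 at -0.57 (adjusted p = 0.00304) and Nos1 at 0.42 (adjusted p = 0.0237), where letter and group coincide. The run term called 0 members with the mean over probes (Gad1 0.53, adjusted p = 0.0761) and 0 with the replicate block (Gad1 0.50, adjusted p = 0.423). With 75th percentile scaling it called Nos1 at -0.63 (adjusted p = 0.0433) and not Gad1. Of the 6 called pairs 1 remained with the replicate block, 1 in refits within letter a, 0 within letter b and 0 within animals with both letters, where fewer animals enter. Of the 6, 4 remained with 75th percentile scaling, with the first component of the residuals as a covariate and without the animals with both letters, where 1, 1 and 2 other pairs were called. With array weights 5 remained and 1 other was called, with no detection filter and without XX female replicate 9 there were 5, and without XXY male replicate 3 all 6 remained and 2 others were called. The settings that leave out 1 animal were chosen after seeing the data. All 6 pairs kept their sign in all 14 alternatives. With array weights, no detection filter or the mean over probes, r of these pairs could not differ from the main fit. Over the 14, r was 0.57 to 0.70 for Npy and Sst and -0.83 to -0.49 for Npy and Pvalb. It was -0.84 to -0.42 for Npy and Cck and -0.66 to -0.10 for Npy and Vip. For Pvalb and Cck it was 0.40 to 0.89, and for Cck and Vip 0.30 to 0.83. Same-numbered animals of different groups correlated at a median of -0.02, with 20 of 48 pairs over 0.1. Of 37 animals, 4 correlated best with their own number. The labels do not say that the numbers pair animals. These correlations cannot settle it, since paired animals need not correlate. XX males against XX females alone could not be fitted, since letter and group coincide. Nos1 and part of the Vip values lie near background, which limits what their levels can show.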
